A study of Rattus norvegicus with 9 samples.

Results

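Genes for the uptake of fatty acids and glucose, and for the insulin signal that controls it, were followed in the tibias of sham-operated, ovariectomized and exercised ovariectomized rats. The genes were chosen by name: Lpl, Gpihbp1, Cd36, Slc27a1 and Fabp4 for fatty acids, Slc2a4 for glucose, and Insr, Irs1 and Irs2 for insulin signalling. All 9 were found by symbol among the 22589 genes listed for each rat, and all 9 were among the 14520 genes with enough counts to be tested. These genes, and the gene and marker lists used below, were chosen with earlier results of these data known. Their counts and medians beside those of all genes are therefore descriptions. Female Sprague-Dawley rats, aged 9 weeks when bought, were operated on after 1 week. Rats of the Sham group kept their ovaries and lost only a little fat next to them. Rats of the NE/Ovx group lost both ovaries and did not exercise. Rats of the RE/Ovx group lost both ovaries and were left for some weeks before training. They then practised ladder climbing for 2 weeks and climbed for 12 weeks with a tail load that rose from 50% to 100% of body weight. No group combined intact ovaries with exercise. The left tibias of 3 rats in each group, cleared of soft tissue, were sequenced as total RNA without ribosomal RNA.

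Triglycerides reach tissues in circulating lipoproteins and must be split before their fatty acids can enter a cell. Lipoprotein lipase does this on the wall of capillaries, where GPIHBP1 holds it in place. The scavenger receptor CD36 and the transport protein FATP1, the product of Slc27a1, then help the fatty acids across the membrane, and FABP4 carries them inside fat cells and some macrophages and endothelial cells. Glucose enters fat and muscle cells through GLUT4, the product of Slc2a4, which waits in vesicles until insulin calls it to the surface. The insulin receptor passes this signal to the adaptor proteins IRS1 and IRS2, which recruit phosphatidylinositol 3-kinase. In the marrow of long bones, fat cells lie among blood-forming cells, and osteoblasts also carry insulin receptors.

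The libraries held between 12297992 and 16671533 counts. Rats are numbered as in the labels. The columns of the files number them 1 to 3 within each group, so which rat of a group a value belongs to rests on the labels alone, while the groups are the same in both. The RNA came from whole bones, so fewer cells of a type and less RNA per cell cannot be told apart. Markers of bone, marrow and other tissues were present: 10 osteoblast markers summed to between 6512 and 27810 CPM (counts scaled to the effective size of the library) in a rat, 10 erythroid markers to between 7962 and 13310 CPM and 12 fat cell markers to between 214.9 and 612.9 CPM. The 12 skeletal muscle markers summed to between 5689 CPM in Sham rat 8 and 18920 CPM in NE/Ovx rat 6, although the bones had been cleared of muscle. Groups were compared by the quasi-likelihood test of edgeR, fitted once to the 9 rats, and a gene was called at a Benjamini-Hochberg adjusted p under 0.05 over all tested genes. Genes were counted a second time at the looser thresholds of the study. These took fold changes over 1.2 or under 0.83 at an unadjusted p under 0.05. They were applied here to the fold changes and p-values of edgeR, whereas the study tested with DESeq2. Counts at these thresholds are therefore not those of the study.

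Compared per transcript length, Fabp4 had the highest level of the 9 genes, with a mean of 143 FPKM (fragments per transcript length and library size) over the 9 rats. Cd36 followed at 51.3 FPKM and Lpl at 37.6 FPKM. Irs2 and Insr had means of 18.0 and 16.7 FPKM. Slc2a4 was at 10.9, Irs1 at 9.52 and Slc27a1 at 7.02 FPKM, and Gpihbp1 was lowest at 2.80 FPKM. Neighbours in this order overlapped in their ranges over the rats, except Insr, whose lowest value was 14.6 FPKM, and Slc2a4, whose highest was 14.5 FPKM. The gap between Fabp4 and Cd36 differed between the groups. In Sham rats Fabp4 (66.7 ± 30.3 FPKM, SD, n = 3) was near Cd36 (57.3 ± 6.58 FPKM), whereas in RE/Ovx rats it stood at 210.5 ± 72.3 against 52.5 ± 11.4 FPKM.

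**Figure D1:**
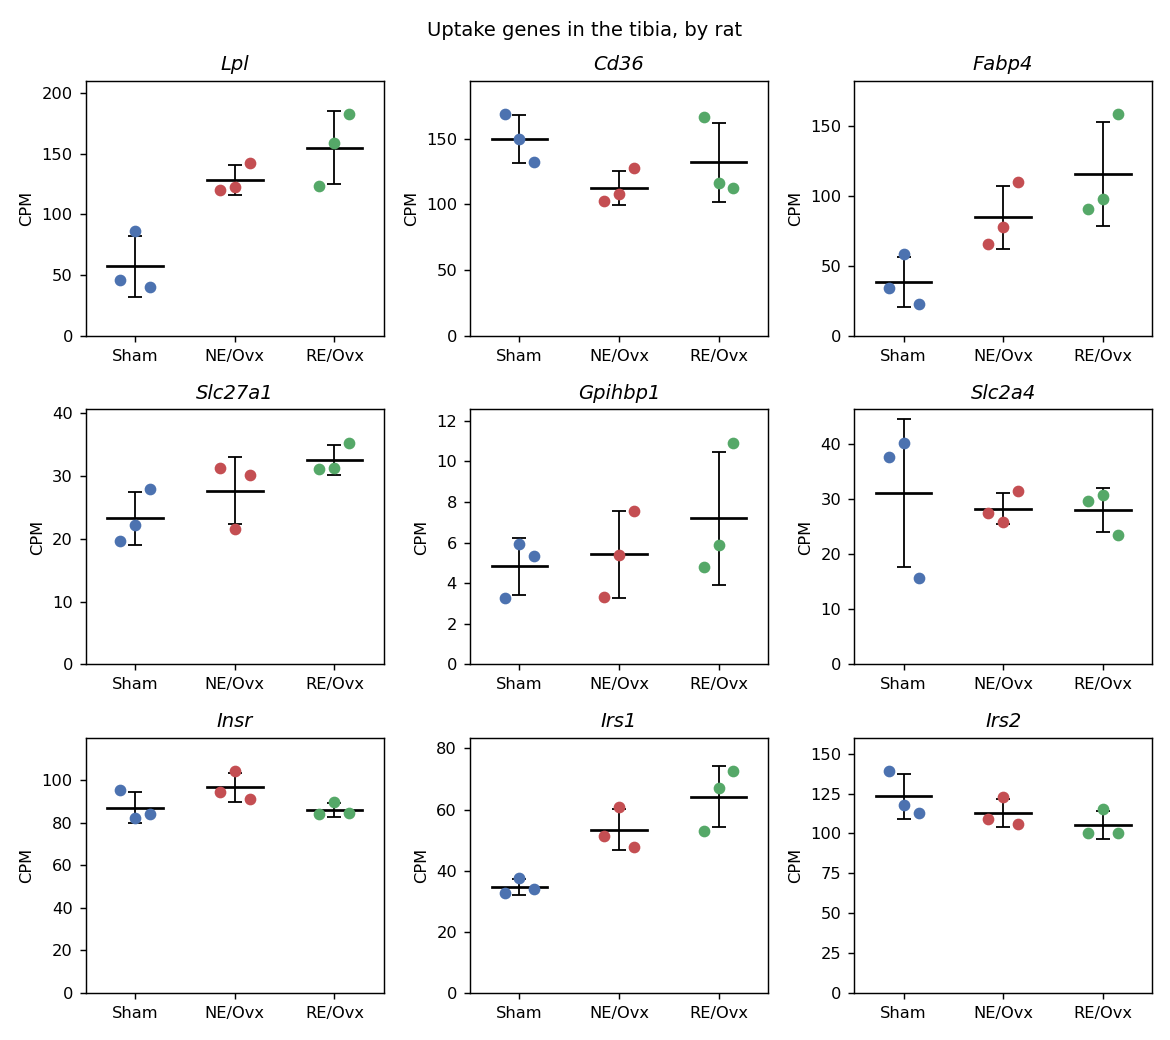
Level of the 9 genes in each rat, in CPM, by group. Points are rats, horizontal bars are means and whiskers are 1 SD (n = 3). Lpl, Fabp4 and Irs1 lie above every Sham rat in all 6 ovariectomized rats, and Cd36 lies lower in each NE/Ovx rat than in any Sham rat.

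The lipase and the fatty acid carrier of fat cells were higher in ovariectomized rats, with the change past the adjusted threshold in the RE/Ovx group. Lpl, which encodes lipoprotein lipase, was at 45.8, 86.2 and 39.97 CPM in Sham rats 12, 7 and 8. In NE/Ovx rats 6, 8 and 9 it was at 120.4, 122.3 and 142.5 CPM, and in RE/Ovx rats 3, 5 and 8 at 123.1, 159.0 and 182.3 CPM. No ovariectomized rat overlapped with a Sham rat, while the NE/Ovx and RE/Ovx groups overlapped. Lpl rose 2.70-fold in RE/Ovx compared with Sham rats (log2 fold change 1.43, standard error 0.26, edgeR adjusted p = 0.016). In NE/Ovx rats the fold was 2.24 (log2 fold change 1.16, standard error 0.26, edgeR adjusted p = 0.0623), short of the threshold. Sham rat 7 stood above the other Sham rats, and without it Lpl passed in the NE/Ovx comparison as well (log2 fold change 1.57, edgeR adjusted p = 0.0107). The call in RE/Ovx rats was lost without RE/Ovx rat 5 (edgeR adjusted p = 0.0593) or RE/Ovx rat 8 (edgeR adjusted p = 0.0635).

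Fabp4, the fatty acid binding protein of fat cells, had the widest relative range of the 9 genes among the rats. It was at 34.2, 58.5 and 23.1 CPM in Sham rats 12, 7 and 8, at 66.0, 78.2 and 110.1 CPM in NE/Ovx rats 6, 8 and 9, and at 90.7, 97.9 and 158.6 CPM in RE/Ovx rats 3, 5 and 8. All ovariectomized rats were above all Sham rats, and the 2 ovariectomized groups overlapped. In RE/Ovx rats Fabp4 rose 2.99-fold over Sham (log2 fold change 1.58, standard error 0.34, edgeR adjusted p = 0.0245). The NE/Ovx group had a fold of 2.19 (log2 fold change 1.13, standard error 0.34, edgeR adjusted p = 0.112). Without Sham rat 12, RE/Ovx rat 5 or RE/Ovx rat 8 the call in RE/Ovx rats was lost, with edgeR adjusted p = 0.063, 0.0673 and 0.0926. Fabp4 and Lpl kept a similar proportion in every group. Their FPKM ratio was 3.60 ± 0.463 in Sham, 3.52 ± 0.608 in NE/Ovx and 3.99 ± 0.686 in RE/Ovx rats, a description chosen after the values were seen.

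Gpihbp1, which anchors lipoprotein lipase on capillary endothelium, did not pass in any comparison. It was at 3.25, 5.91 and 5.32 CPM in Sham rats 12, 7 and 8, at 3.31, 5.40 and 7.58 CPM in NE/Ovx rats 6, 8 and 9, and at 4.78, 5.88 and 10.9 CPM in RE/Ovx rats 3, 5 and 8. The 3 groups overlapped, and RE/Ovx rat 8 was the highest. These levels rest on 39 to 170 counts per rat, the fewest of the 9 genes. Its log2 fold change from Sham was 0.17 in NE/Ovx rats (95% interval -0.70 to 1.04) and 0.57 in RE/Ovx rats (95% interval -0.29 to 1.43), with intervals wide enough to hold a change of over 2-fold. Lpl per Gpihbp1 was higher after ovariectomy in every rat, with an FPKM ratio of 5.16 to 10 in Sham rats, 12.9 to 25.0 in NE/Ovx rats and 11.5 to 18.5 in RE/Ovx rats, another description chosen after the values were seen.

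The fatty acid transporters of the membrane, Cd36 and Slc27a1, did not pass the adjusted threshold in any comparison. Cd36 was lower in each NE/Ovx rat than in any Sham rat. It was at 168.4, 149.5 and 131.9 CPM in Sham rats 12, 7 and 8 and at 102.4, 107.9 and 127.3 CPM in NE/Ovx rats 6, 8 and 9, without overlap (log2 fold change -0.41, standard error 0.16, edgeR adjusted p = 0.186). RE/Ovx rats 3, 5 and 8 were at 166.5, 116.5 and 112.4 CPM, which overlapped with both other groups. Rat 3 was near the top of the Sham range, and the other two lay inside the NE/Ovx range. The log2 fold change of RE/Ovx against Sham was -0.19 (95% interval -0.54 to 0.17), and -0.39 without RE/Ovx rat 3 (edgeR adjusted p = 0.0877). A rat gene table lists 2 further loci named after Cd36, and neither is a row of these counts, so reads from such copies could have been counted for Cd36. Slc27a1 was at 19.7, 22.3 and 27.9 CPM in Sham rats 12, 7 and 8, at 31.4, 21.6 and 30.1 CPM in NE/Ovx rats 6, 8 and 9, and at 31.1, 31.3 and 35.3 CPM in RE/Ovx rats 3, 5 and 8. The RE/Ovx rats lay above all Sham rats, with a log2 fold change of 0.49 (standard error 0.17) that met the study's thresholds and missed the adjusted one (edgeR adjusted p = 0.104). In NE/Ovx rats, which overlapped with both groups, it was 0.25 (95% interval -0.12 to 0.62).

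RefSeq start sites with the 250 bases before them were matched for 4 of the 9 genes, Cd36, Slc27a1, Insr and Irs1, on the assembly GRCr8. The windows of Cd36 and Slc27a1 are shown as those of the membrane transporters, whose log2 fold changes from Sham had opposite signs, with no call for either gene and no test of the difference. The windows are given 5′ to 3′ on the strand of the gene, at chr4:18246332-18246581 (plus strand) for Cd36 and chr16:18312717-18312966 (plus strand) for Slc27a1, with the letters of matched motifs in capitals.
Cd36: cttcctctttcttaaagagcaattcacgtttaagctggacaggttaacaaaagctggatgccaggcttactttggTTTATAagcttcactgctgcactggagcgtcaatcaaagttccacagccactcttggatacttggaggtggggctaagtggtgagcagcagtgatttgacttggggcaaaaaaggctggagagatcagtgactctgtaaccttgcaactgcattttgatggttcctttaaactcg
Slc27a1: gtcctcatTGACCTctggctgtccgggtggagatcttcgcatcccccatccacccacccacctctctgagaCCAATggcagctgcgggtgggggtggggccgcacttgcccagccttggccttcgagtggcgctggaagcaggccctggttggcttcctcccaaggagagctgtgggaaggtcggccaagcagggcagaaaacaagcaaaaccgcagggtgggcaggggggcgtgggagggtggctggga
The motifs searched on both strands were the nuclear receptor half-site AGGTCA, the FOXO site TGTTTAC, the GC box GGGCGG, the TATA box TATAAA and the CCAAT box CCAAT. The window of Cd36 held the letters of the TATA box on the reverse strand, from -175 to -170 relative to the start site, and none of the other 4 motifs. That of Slc27a1 held a half-site on the reverse strand from -242 to -237 and a CCAAT box from -179 to -175. Among 33360 RefSeq windows of this length, 12.9% held TATAAA, 14.1% AGGTCA and 34.0% CCAAT on either strand. The Cd36 window had a GC content of 45.6% and 3 CpG sites, and the Slc27a1 window 65.6% and 9 CpG sites, against a median GC content of 51.6%.

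Slc2a4, the glucose transporter of fat and muscle that insulin mobilizes, did not differ between the groups beyond the spread of the rats. It was at 37.5, 40.2 and 15.6 CPM in Sham rats 12, 7 and 8. NE/Ovx rats 6, 8 and 9 were at 27.4, 25.9 and 31.3 CPM and RE/Ovx rats 3, 5 and 8 at 29.7, 30.7 and 23.4 CPM. The Sham group spanned both others, because Sham rat 8 was the lowest of the 9 rats and the other Sham rats were the highest. Compared with Sham, its log2 fold change was -0.14 in NE/Ovx rats (95% interval -0.78 to 0.49) and -0.16 in RE/Ovx rats (95% interval -0.79 to 0.48). Between the ovariectomized groups it was -0.02 (95% interval -0.65 to 0.62). Sham rat 8 also had the lowest sum of skeletal muscle markers. When this rat was left out, NE/Ovx and RE/Ovx rats both had a log2 fold change of -0.47 from Sham (edgeR adjusted p = 0.17 and 0.0994). The signs of these small differences turned under some scalings and without some rats.

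Of the insulin signalling genes, Irs1 was higher in the ovariectomized groups, past the adjusted threshold in RE/Ovx rats, while Insr and Irs2 did not pass in any comparison. Irs1 was at 32.6, 37.5 and 34.1 CPM in Sham rats 12, 7 and 8, at 51.3, 60.9 and 47.9 CPM in NE/Ovx rats 6, 8 and 9, and at 53.0, 67.1 and 72.5 CPM in RE/Ovx rats 3, 5 and 8. All 6 ovariectomized rats stood above the Sham rats, which were close together. Irs1 rose 1.85-fold in RE/Ovx compared with Sham rats (log2 fold change 0.89, standard error 0.14, edgeR adjusted p = 0.0113), the smallest p of the 9 genes. The fold for NE/Ovx was 1.53 (log2 fold change 0.62, standard error 0.14, edgeR adjusted p = 0.0596). Among the fits that left out 1 rat, the call in RE/Ovx rats was lost without RE/Ovx rat 8 (edgeR adjusted p = 0.052).

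The receptor itself varied little. Insr was at 95.3, 82.1 and 84.1 CPM in Sham rats 12, 7 and 8, at 94.6, 104.3 and 91.3 CPM in NE/Ovx rats 6, 8 and 9, and at 84.2, 90.0 and 84.5 CPM in RE/Ovx rats 3, 5 and 8. Each RE/Ovx rat was below each NE/Ovx rat, and the Sham rats overlapped with both. The log2 fold change of RE/Ovx against NE/Ovx was -0.17 (95% interval -0.36 to 0.03, edgeR adjusted p = 0.952), and RE/Ovx rats differed from Sham rats by -0.02 (95% interval -0.21 to 0.18). Irs2, the substrate that liver and beta cells depend on, was at 112.9 to 139.0 CPM in Sham, 106.2 to 122.9 CPM in NE/Ovx and 100.1 to 115.2 CPM in RE/Ovx rats. The groups overlapped, and the log2 fold change of RE/Ovx against Sham was -0.23 (95% interval -0.46 to 0.01, edgeR adjusted p = 0.212).

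The proportion of Irs1 to Irs2 differed between the groups. Per transcript length the Irs1 level was 0.276 to 0.376 of the Irs2 level in Sham rats, 0.531 to 0.583 in NE/Ovx rats and 0.624 to 0.85 in RE/Ovx rats. The 3 groups did not overlap in this ratio. Against Insr, Irs1 was at 0.345 to 0.461 in Sham rats, 0.529 to 0.588 in NE/Ovx rats and 0.635 to 0.866 in RE/Ovx rats, again without overlap. These ratios were chosen after the values were seen and were not tested.

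**Figure D2:**
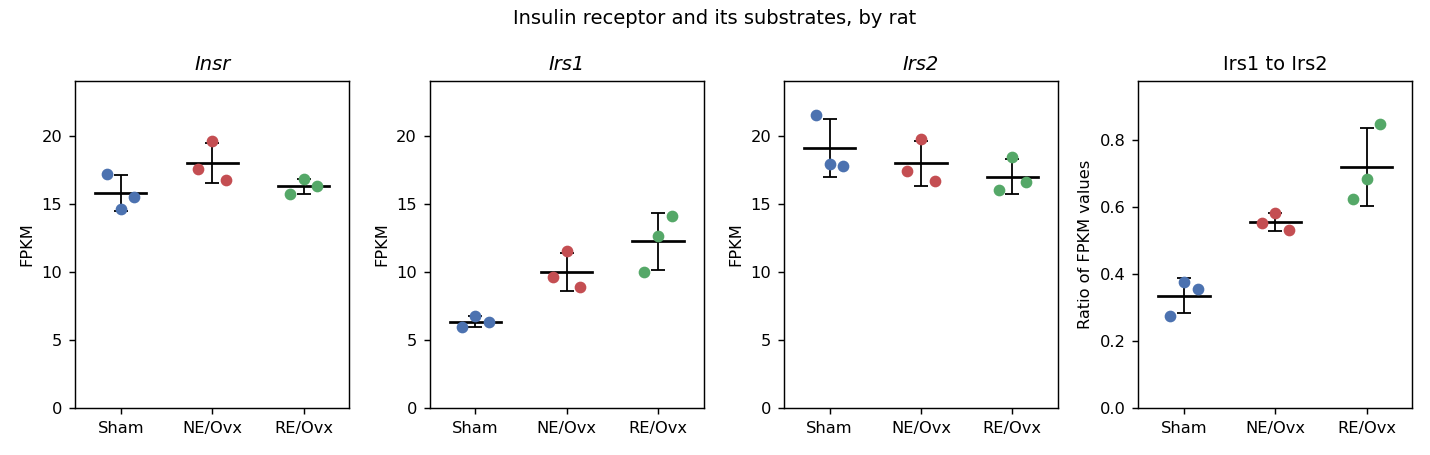
Insr, Irs1 and Irs2 in FPKM, and the ratio of Irs1 to Irs2, in each rat by group. Points are rats, horizontal bars are means and whiskers are 1 SD (n = 3). The mean of Irs1 goes from 6.33 FPKM in Sham to 12.2 FPKM in RE/Ovx rats, that of Irs2 from 19.1 to 16.99 FPKM, and the mean ratio from 0.336 to 0.72.

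The windows before the start sites of Irs1 and Insr are shown as those of the substrate that rose and the receptor that passed in no comparison. They lie at chr9:91053960-91054209 (minus strand) for Irs1 and chr12:6128804-6129053 (minus strand) for Insr on GRCr8, with capitals as above.
Irs1: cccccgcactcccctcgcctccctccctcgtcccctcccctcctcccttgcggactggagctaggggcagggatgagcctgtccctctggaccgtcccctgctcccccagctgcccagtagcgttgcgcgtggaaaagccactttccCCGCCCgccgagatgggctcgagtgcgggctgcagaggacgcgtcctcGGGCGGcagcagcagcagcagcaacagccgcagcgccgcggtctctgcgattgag
Insr: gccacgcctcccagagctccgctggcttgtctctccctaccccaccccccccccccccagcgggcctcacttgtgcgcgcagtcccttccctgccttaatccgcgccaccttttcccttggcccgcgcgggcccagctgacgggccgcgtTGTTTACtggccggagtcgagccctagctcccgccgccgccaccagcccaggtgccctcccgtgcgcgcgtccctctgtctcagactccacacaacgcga
The Irs1 window held the GC box at 2 places, forward from -55 to -50 and reverse from -103 to -98, and no TATA box letters. The Insr window held the FOXO letters TGTTTAC from -100 to -94, a motif found in 3.21% of all windows, and no GC box letters, which 30.5% of windows held. Both were rich in GC, at 70.8% with 22 CpG sites for Irs1 and 71.2% with 24 for Insr.

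Across the 9 genes, 0 were called for NE/Ovx against Sham, where edgeR called 1.23% of all tested genes. An unadjusted p under 0.05 was reached by 4 (20.5% of all genes), and these met the study's thresholds: Lpl, Fabp4 and Irs1 higher (11.3% of all genes passed in this direction) and Cd36 lower (6.52%). DESeq2 on the 9 libraries called Lpl, Fabp4 and Irs1, and limma on log2(FPKM + 1) called 0. Of all genes, DESeq2 also called more than the 178 of edgeR, and this limma setting fewer. The DESeq2 calls thus stand against a larger background than that of edgeR. Lpl, Fabp4 and Irs1 were higher and Cd36 lower without overlap between the groups, against 13.9% and 11.4% of all genes. The median log2 fold change of the 9 genes was 0.17, against 0.0029 for all tested genes.

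Between RE/Ovx and Sham rats, Lpl, Fabp4 and Irs1 were called, all higher, where 8.06% of all genes were called (726 higher and 445 lower). The study's thresholds added Slc27a1 (14.0% of all genes passed as higher). Without overlap between the groups, 4 of the 9 were higher and 0 lower, against 14.9% and 13.0% of all genes. The median log2 fold change was 0.49, against -0.00783 for all tested genes. Both comparisons use the same 3 Sham rats, so they are not independent of each other. The call of Lpl, Fabp4 and Irs1 together was lost without RE/Ovx rat 8, when 0 of the 9 genes passed, and without RE/Ovx rat 5 it was kept by Irs1 alone.

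The comparison of RE/Ovx with NE/Ovx asks what the climbing changed in ovariectomized rats. Of the 9 genes 0 passed in edgeR, as did 0% of all genes, and 0 passed in DESeq2 or limma. None had an unadjusted p under 0.05, against 5.28% of all genes, and none met the study's thresholds, against 4.68%. Adjusted p values ran from 0.948 to 0.995. The log2 fold changes ran from -0.17 for Insr to 0.45 for Fabp4 (95% interval -0.28 to 1.18), with a median of 0.24 against 0.00786 for all genes. For Lpl the difference was 0.27 (95% interval -0.30 to 0.84) and for Irs1 0.27 (95% interval -0.03 to 0.56). Insr alone had no overlap between the groups, where 6.84% of all genes were lower in this way. The RE/Ovx means of Lpl, Fabp4 and Irs1 lay above the NE/Ovx means with overlap between the groups, and no RE/Ovx rat was within the Sham range of these genes.

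**Figure D3:**
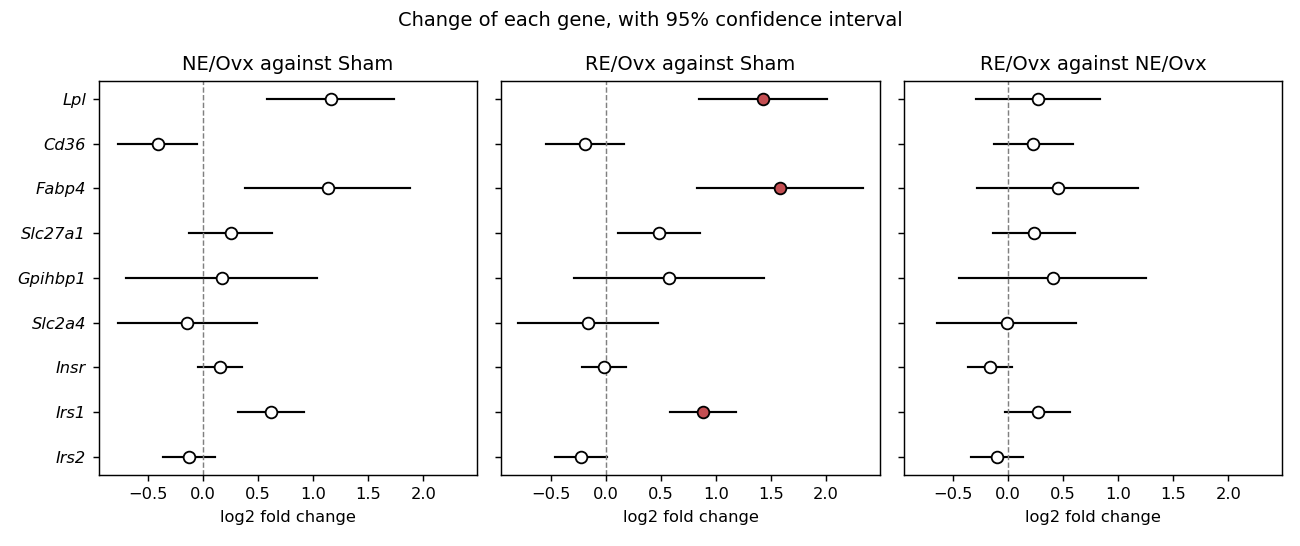
Log2 fold change of the 9 genes in the 3 comparisons, with the 95% confidence interval from edgeR as horizontal lines. Filled points passed the adjusted threshold. Lpl, Fabp4 and Irs1 are filled for RE/Ovx against Sham at 1.43, 1.58 and 0.89, and the intervals for RE/Ovx against NE/Ovx all include 0.

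Markers of several cell types differed between the same groups. The 12 fat cell markers, which include none of the 9 genes, summed to 214.9 to 273.4 CPM in Sham, 403.5 to 467.6 CPM in NE/Ovx and 495.8 to 612.9 CPM in RE/Ovx rats, and none was at 0 in any rat. Of these, 6 were called higher in NE/Ovx rats and 10 in RE/Ovx rats compared with Sham. Between the ovariectomized groups edgeR called 0, and 3 were higher at the study's thresholds, against 1.54% of all genes. Over the 9 rats the log2 level of Lpl followed that of the summed markers with Pearson's r of 0.965 (Spearman's rho 0.983), that of Fabp4 with 0.946 (0.95) and that of Irs1 with 0.954 (0.90). Rats of a group share their treatment, and both levels are scaled to the same library, so these values describe the 9 rats and no more. Lpl per summed marker CPM was 0.186 to 0.315 in Sham, 0.277 to 0.305 in NE/Ovx and 0.248 to 0.297 in RE/Ovx rats, and Fabp4 per summed marker CPM was 0.107 to 0.214, 0.164 to 0.235 and 0.177 to 0.259. Both ratios overlapped between the 3 groups. The part of the fat cell markers in the higher levels was not tested.

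Irs1 was also high where the sum of the 10 osteoblast markers was high (r 0.902, rho 0.80). These markers summed to 6512 to 9169 CPM in Sham, 15730 to 26170 CPM in NE/Ovx and 17720 to 27810 CPM in RE/Ovx rats, with none at 0. Of these, 2 were called higher in each ovariectomized group. Lpl and Fabp4 had r of 0.825 and 0.757 with the same markers. The 8 cartilage markers summed to 704.3 to 1396 CPM in Sham, 1606 to 2490 CPM in NE/Ovx and 2084 to 2275 CPM in RE/Ovx rats, with none at 0, and 2 were called higher in NE/Ovx and 4 in RE/Ovx rats compared with Sham. Irs1, Lpl and Fabp4 had r of 0.85, 0.765 and 0.701 with them. The 10 B cell markers summed to 193.7 to 582.3 CPM in Sham, 699.4 to 1141 CPM in NE/Ovx and 854.4 to 1043 CPM in RE/Ovx rats, with none at 0. EdgeR called 0 of them in NE/Ovx and 3 in RE/Ovx rats, all higher. In NE/Ovx rats 8 were higher at the study's thresholds, against 11.3% of all genes. With these markers Irs1 had an r of 0.805, Slc27a1 of 0.789 (rho 0.883), Lpl of 0.749 and Fabp4 of 0.628. The sums of fat cell, osteoblast, cartilage and B cell markers were thus each higher in all 6 ovariectomized rats than in any Sham rat. Lpl, Fabp4 and Irs1 were higher in the same way. Single markers did not all follow their sum. In NE/Ovx rats 9 of 12 fat cell, 2 of 10 osteoblast, 5 of 8 cartilage and 9 of 10 B cell markers were higher without overlap. Of all genes 13.9% were higher in this way, and the osteoblast count was near that share. The lowest log2 fold changes of these lists were -1.09, -0.599, 0.57 and 0.66 in that order. In RE/Ovx rats 10, 4, 7 and 9 were higher without overlap, against 14.9% of all genes. Cd36, which red cell precursors and platelets carry, ran with the 10 erythroid markers (r 0.875, rho 0.90) and with the megakaryocyte markers (r 0.615, rho 0.85). The erythroid markers summed to 10460 to 13310 CPM in Sham, 8652 to 11040 CPM in NE/Ovx and 7962 to 11140 CPM in RE/Ovx rats, with none at 0 and none called in these comparisons. The megakaryocyte markers summed to 1077 to 1557 CPM in Sham, 872.7 to 1027 CPM in NE/Ovx and 913.3 to 1068 CPM in RE/Ovx rats. Gp1bb, which was not among the 9 tested and summed, was at 0 in at least 1 rat. Of the 9 tested, 4 were called lower in RE/Ovx against Sham rats, where 3.06% of all genes were called lower. Gpihbp1 ran with the endothelial markers (r 0.876, rho 0.80), a relation in which RE/Ovx rat 8 was highest in both at 864.9 CPM of summed markers, against 733.0 to 771.6 CPM in Sham and 747.2 to 770.8 CPM in NE/Ovx rats. The RE/Ovx rats 3 and 5 were at 755.5 and 766.7 CPM. Robo4, not among the 11 markers tested and summed, was at 0 in at least 1 rat, and 2 of the list were called higher in RE/Ovx against Sham rats.

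Slc2a4 and the 12 skeletal muscle markers had r of 0.66 and rho of 0.517, and Sham rat 8 was lowest in both. The muscle markers summed to 15130 to 18920 CPM in NE/Ovx and 7167 to 10710 CPM in RE/Ovx rats. Each of the 12 was lower in every RE/Ovx rat than in any NE/Ovx rat, against 6.84% of all genes. EdgeR called 0 of these markers, and 10 were lower at the study's thresholds, against 3.15% of all genes. Slc2a4 did not move with them between these groups, at 28.2 ± 2.82 CPM in NE/Ovx and 27.9 ± 3.97 CPM in RE/Ovx rats. The part of erythroid, megakaryocyte, osteoblast, cartilage, B, endothelial and muscle cells in the levels of the 9 genes was not tested.

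**Figure D4:**
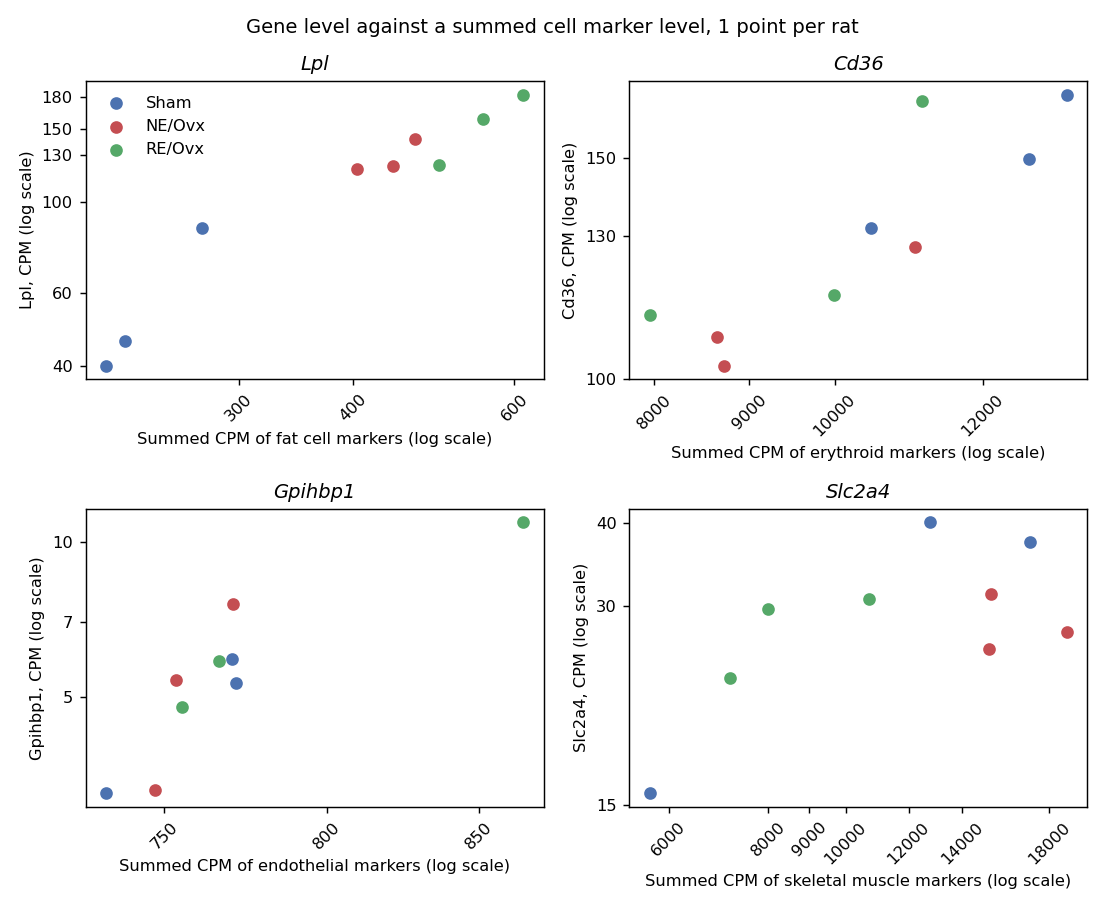
Level of Lpl, Cd36, Gpihbp1 and Slc2a4 against the summed CPM of a marker list, 1 point per rat, coloured by group, on log axes. Lpl and the fat cell markers are low together in the 3 Sham rats (214.9 to 273.4 CPM of markers), and 1 rat at 864.9 CPM of markers lies apart in the plot of Gpihbp1.

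The genes whose log2 CPM was most like that of a given gene over the 9 rats were sought next. They were taken from tested genes with a known symbol and a mean of at least 1 CPM, with the 9 genes left out. Picked as the highest among many, their r values are high by selection and describe these rats only. For Lpl the most alike were Adipoq, a hormone of fat cells (r 0.987), Aqp7, their glycerol channel (r 0.983), and Ncald (r 0.982). For Fabp4 they were Esm1, an endothelial proteoglycan (r 0.98), Sncg (r 0.974) and Fam13a (r 0.971). For Irs1 they were Pde3b, a phosphodiesterase that insulin activates in fat cells (r 0.984), Arhgap29 (r 0.981) and Zbtb4 (r 0.98). For Cd36 they were Yod1 (r 0.977), Rlim (r 0.97) and Gypc, a membrane glycoprotein of red cells (r 0.947). Slc27a1 was most like Lca5 (r 0.959), Zfp637 (r 0.958) and Snn (r 0.927), and Gpihbp1 most like Ptpra (r 0.945), Sec63 (r 0.931) and Mapre2 (r 0.918). Slc2a4 was most like Asb16 (r 0.947), Ndufv1, a subunit of respiratory complex I (r 0.939), and Ssmem1 (r 0.929). Insr was most like Nckipsd (r 0.953), Ppp1r12b (r 0.929) and Tecpr1 (r 0.927), and Irs2 most like Stk40 (r 0.982), Ranbp6 (r 0.95) and Arhgap10 (r 0.95). Among the 9 genes themselves, Lpl and Fabp4 had the highest r (0.971, rho 0.983), followed by Lpl and Irs1 (r 0.91, rho 0.867), and the lowest was that of Slc27a1 and Irs2 (r -0.886, rho -0.767).

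Around these 9 genes, 5 lists held 114 symbols (Tusc5 under both of its names) of other genes of lipase control, fatty acid entry, glucose transport, GLUT4 traffic and insulin signalling, of which 96 were tested. Compared with Sham rats, 4 were called in NE/Ovx rats, all higher, where 1.03% of all tested genes were called higher, and the 96 genes had a median log2 fold change of 0.04. In RE/Ovx rats 12 were called higher and 5 lower, against 726 higher and 445 lower of all 14520 tested genes, with a median of 0.01. The shares called over all genes in the 2 comparisons, 1.23% and 8.06%, are the background for the counts of each list. Between the ovariectomized groups 0 were called by edgeR. At the study's thresholds 5 were lower and 1 higher, against 3.15% and 1.54% of all genes. DESeq2 on those 2 groups called 2, a count given without the share over all genes. The 17 calls in RE/Ovx rats fell to 1, that of Tusc5, without RE/Ovx rat 5 and likewise to 1 without RE/Ovx rat 8, fell to 10 without Sham rat 8 and rose to 26 without RE/Ovx rat 3.

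Of 12 genes that control lipoprotein lipase, 2 were called for RE/Ovx against Sham, both higher. They were Hspg2, the proteoglycan perlecan (232.6 ± 8.08 CPM in Sham, 374.1 ± 50.9 CPM in NE/Ovx and 403.3 ± 94.7 CPM in RE/Ovx rats, edgeR adjusted p = 0.024), and Lrp1, an endocytic receptor for lipoprotein remnants (638.9 ± 12, 922.8 ± 87.4 and 965.6 ± 157 CPM, edgeR adjusted p = 0.0274). The call of Lrp1 was lost in 5 of the 6 fits that left out a rat, all but that without RE/Ovx rat 3, and with edgeR on the 2 groups (edgeR adjusted p up to 0.114). That of Hspg2 was lost without Sham rat 7 or 8 or RE/Ovx rat 5 or 8 (edgeR adjusted p up to 0.0974) and by limma on log2(FPKM + 1). In NE/Ovx rats 0 were called by edgeR, while 5 met the study's thresholds, all higher, a direction in which 11.3% of all genes passed. Of 17 genes of fatty acid entry and activation, Cav2, a caveolin, rose by 1.09 on the log2 scale in RE/Ovx against Sham rats (edgeR adjusted p = 0.0153) and no other gene passed. Cav1, its partner, had a log2 fold change of 0.84 for NE/Ovx against Sham (edgeR adjusted p = 0.14). Fabp3, the fatty acid binding protein of muscle, was at 19.98 ± 5.66 CPM in NE/Ovx and 8.35 ± 4.16 CPM in RE/Ovx rats, without overlap (log2 fold change -1.27, edgeR adjusted p = 0.92), and Acsl6 at 6.30 ± 1.19 and 3.30 ± 0.57 CPM. The skeletal muscle markers were lower in the same RE/Ovx rats, and their part in these values was not tested.

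Of 12 genes of glucose transport and phosphorylation, 2 fell and 1 rose in RE/Ovx against Sham rats. Hk2 and Hk3 encode hexokinases, which trap glucose in the cell. Hk2 was at 94.3 ± 10.9 CPM in Sham, 79.7 ± 1.99 CPM in NE/Ovx and 65.1 ± 4.70 CPM in RE/Ovx rats (edgeR adjusted p = 0.0169 for RE/Ovx against Sham), and the 3 groups did not overlap. Hk3, abundant in myeloid cells, was at 140.7 ± 17.6, 106.3 ± 24.3 and 74.6 ± 10.7 CPM (edgeR adjusted p = 0.0167). Both calls were lost without RE/Ovx rat 5 or 8 (edgeR adjusted p up to 0.0798), as were all calls of the lists in this comparison except that of Tusc5. Limma on log2(FPKM + 1) also lost that of Hk2. The 9 tested neutrophil markers summed to 7344 to 12360 CPM in Sham, 5594 to 6432 CPM in NE/Ovx and 4206 to 6286 CPM in RE/Ovx rats, with none of the list at 0, and their part in the hexokinase levels was not tested. Slc2a13, a transporter of myo-inositol, rose by 0.86 on the log2 scale (edgeR adjusted p = 0.0458), a call lost without Sham rat 12 or 7 or RE/Ovx rat 5 or 8 (edgeR adjusted p up to 0.155), with edgeR on the 2 groups and in the 3 limma settings. In NE/Ovx rats edgeR called 0, with log2 fold changes of 0.58 for Slc2a8 (edgeR adjusted p = 0.105) and 0.98 for Slc2a10 (edgeR adjusted p = 0.129). At the study's thresholds 2 of the list were higher and 2 lower, against 11.3% and 6.52% of all genes.

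Of 17 tested genes of GLUT4 vesicle traffic, 2 rose in NE/Ovx against Sham rats, and 2 rose and 2 fell in RE/Ovx against Sham rats. Tusc5, also called Trarg1, encodes a protein of GLUT4 vesicles in fat cells and had the largest change of the 5 lists. It was at 5.92, 7.84 and 2.74 CPM in Sham rats 12, 7 and 8, at 24.5, 27.0 and 22.7 CPM in NE/Ovx rats 6, 8 and 9, and at 34.7, 43.0 and 48.4 CPM in RE/Ovx rats 3, 5 and 8. The 3 groups did not overlap. Compared with Sham, its log2 fold change was 2.16 in NE/Ovx rats (standard error 0.29, edgeR adjusted p = 0.0175) and 2.92 in RE/Ovx rats (standard error 0.29, edgeR adjusted p = 0.00248). RE/Ovx rats differed from NE/Ovx rats by 0.77 (standard error 0.26, edgeR adjusted p = 0.92). Tusc5 kept its call in RE/Ovx rats in all 6 fits that left out a rat, and lost that in NE/Ovx rats without NE/Ovx rat 8 or 9 (edgeR adjusted p = 0.0789 and 0.0556). Myo1c, a motor that helps GLUT4 vesicles dock, rose by 0.52 in NE/Ovx and 0.56 in RE/Ovx rats on the log2 scale (edgeR adjusted p = 0.0331 and 0.0129). Sort1, the sorting receptor sortilin, and Snap23, a SNARE of vesicle fusion, fell by 0.46 and 0.42 in RE/Ovx against Sham rats (edgeR adjusted p = 0.0184 and 0.0241). The call of Snap23 was lost without Sham rat 7 or 8 or RE/Ovx rat 5 or 8 (edgeR adjusted p up to 0.098) and with edgeR on the 2 groups. Slc2a4 itself, the cargo of these vesicles, had the overlapping values given above.

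Of 38 tested genes of insulin signalling, 2 rose in NE/Ovx against Sham rats, and 6 rose and 1 fell in RE/Ovx against Sham rats, where 1.23% and 8.06% of all tested genes were called. Grb14, an adaptor that inhibits the insulin receptor, was at 7.71 ± 0.907 CPM in Sham, 14.8 ± 1.75 CPM in NE/Ovx and 14.4 ± 2.13 CPM in RE/Ovx rats (edgeR adjusted p = 0.033 and 0.0166 against Sham). Foxo1, the transcription factor that insulin keeps out of the nucleus, was at 27.99 ± 6.35, 56.7 ± 9.73 and 57.5 ± 9.59 CPM (edgeR adjusted p = 0.0403 and 0.0172 against Sham). In NE/Ovx rats the calls of Grb14, Foxo1 and Myo1c were each lost in all 6 fits that left out a rat, with edgeR adjusted p up to 0.107, 0.134 and 0.118. In RE/Ovx against Sham rats Pik3r3, a regulatory subunit of phosphatidylinositol 3-kinase, rose by 0.70 on the log2 scale and Inppl1, the phosphatase SHIP2, by 0.43 (edgeR adjusted p = 0.0324 and 0.0371). Pik3cb, a catalytic subunit of the same kinase, fell by 0.57 (edgeR adjusted p = 0.0427) and was named after its values were seen. The calls of Pik3r3 and Inppl1 were each lost in 5 of the 6 fits that left out a rat, all but that without RE/Ovx rat 3, with edgeR adjusted p up to 0.125 and 0.145, and with edgeR on the 2 groups. Limma on log2(FPKM + 1) also lost both. The call of Pik3cb was lost without Sham rat 12 or 8 or RE/Ovx rat 5 or 8 (edgeR adjusted p up to 0.158), with library totals, with edgeR on the 2 groups and in the 3 limma settings. The list thus holds genes that carry the insulin signal and genes that restrain it, such as Grb14 and Inppl1, among those that rose.

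**Figure D5:**
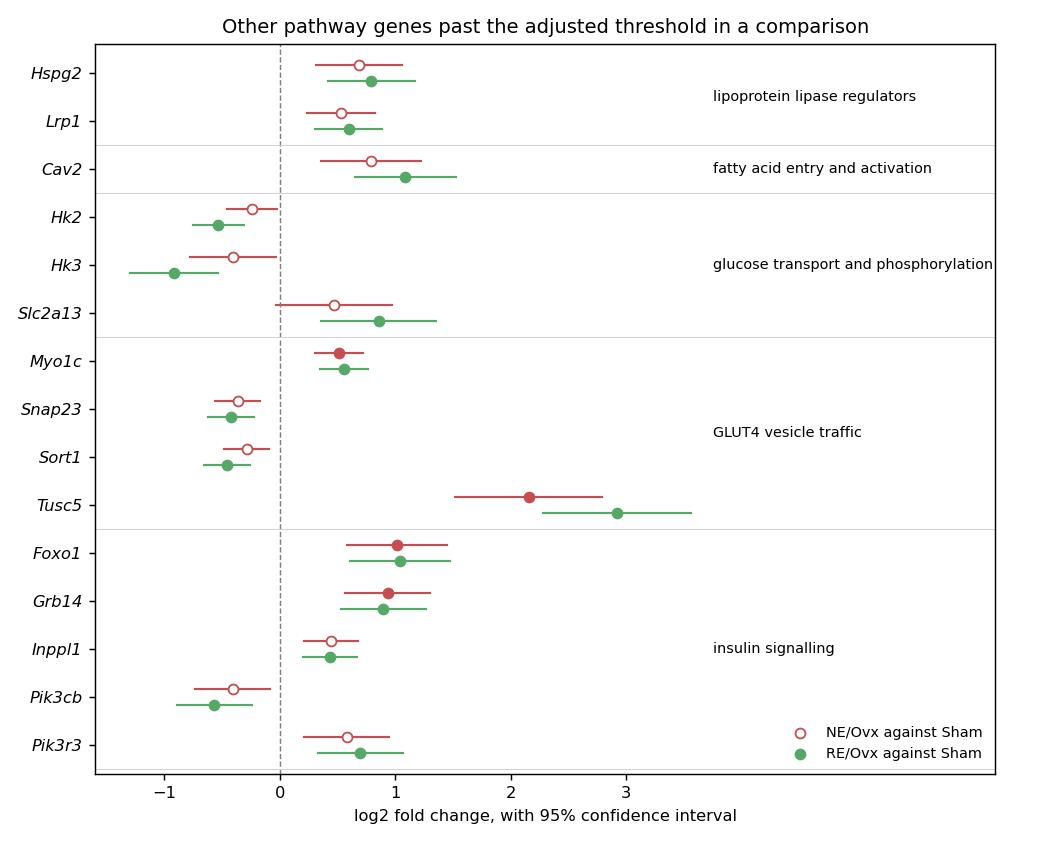
Log2 fold change of 15 of the 17 genes of the 5 lists that passed the adjusted threshold in a comparison, with 95% confidence intervals, for both ovariectomized groups compared with Sham. Filled points passed the threshold in that comparison, which holds for 4 genes in the first and 15 in the second, and Tusc5 lies farthest to the right at 2.16 and 2.92.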

How the data were processed

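Tibia RNA-seq of 9 rats in 3 groups was analysed, with groups taken from the labels. The authors deposited a whole-number count per gene and an FPKM value per gene for each rat. Per the submitters' processing notes, reads were handled with Trimmomatic, Bowtie2, HISAT2 and StringTie on the build Rnor_6.0 and tested with DESeq (versions not given). The libraries kept the strand, and use of the strand in counting is not given in the sources. The study tested counts with DESeq2.

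The group was the only term of 1 model of the 9 libraries, fitted by edgeR 4.0.16 under R 4.3.3 after its filter on low counts and TMM scaling, with the quasi-likelihood test. Libraries of 12297992 to 16671533 counts gave 39 to 2838 counts for each of the 9 genes in a rat. The edgeR p-values set the difference between groups against the spread between rats of a group. That spread was estimated from all 9 rats, with information shared between genes. Levels are CPM, and levels of different genes were compared only as FPKM. For correlations, log2 CPM was computed with 2 as the prior count. The scripts were tested on simulated data. Other computations used Python 3.11.15, numpy 2.4.6, pandas 2.3.3 and matplotlib 3.10.9.

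The 9 genes, the pathway lists and the marker lists were chosen with earlier results of these data known. Every one of the 9 genes is named, with up to 6 genes of each list past the threshold by smallest p, or 2 where none passed, and for each of the 9 genes the 3 genes with the highest r. Promoter windows are from RefSeq (GRCr8), not the build of the counts. Alternatives were DESeq2 1.42.0 on all or 2 groups, limma 3.58.1 on log2(FPKM + 1), also for genes with an FPKM of at least 1 in 3 libraries, and on log2(FPKM + 0.1). In edgeR they were 2 other scalings (median of ratios, library totals), 2 other filters (none, or 10 counts in every library), a fit of 2 groups, the study's thresholds and leaving out each rat. The same settings for genes of the lists were added after seeing the data. Bone density, serum and RT-qPCR measurements were not used here. Some results for single genes of the lists are not reported here.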

Additional observations from a re-analysis of the deposited data

How the results depend on the processing

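Between 39 and 170 counts of Gpihbp1 per rat and 3 rats a group limit what could be seen. In NE/Ovx against Sham rats 0 of the 9 uptake genes passed, against 2 with no filter on low counts, 3 with DESeq2 on all 9 libraries, 3 with DESeq2 on the 2 groups, 1 with limma on genes with an FPKM of at least 1, 4 at the study's thresholds and 0 to 1 when a rat was left out. Of the genes of the lists 4 passed, against 15 and 12 with DESeq2, 1 and 2 with limma at pseudocounts of 1 and 0.1, 28 at the study's thresholds and 0 to 1 without a rat. In this comparison both DESeq2 settings also called more of all genes than the 178 of edgeR, and the limma settings fewer. For RE/Ovx against NE/Ovx, 0 of the 9 genes passed under every alternative run. Of the lists 0 passed, except 2 with DESeq2 on the 2 groups (Fabp3 and Tusc5) and 6 at the study's thresholds, which 4.68% of all genes met. For RE/Ovx against Sham, 3 of the 9 passed, with 0 to 3 without a rat and 3 under every other test and scaling. Of the lists 17 passed, against 10 with edgeR on the 2 groups, 27 with DESeq2 on all 9 libraries and 1 to 26 without a rat. Apart from the study's thresholds, the counts under alternatives in the comparisons with RE/Ovx rats are given without the share called over all genes. At the study's thresholds 38 passed, where 23.2% of all genes did. The cause of these differences was not tested.

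Of 432 values of the 9 genes under an alternative, 395 kept their direction and side of the threshold, 10 newly passed it, 6 no longer passed and 21 changed sign. For Gpihbp1 the log2 fold changes of NE/Ovx against Sham ran from -0.169 to 0.422 when a rat was left out (-0.0596 without Sham rat 12), and those between RE/Ovx and NE/Ovx from -0.0388 to 0.735. For Slc2a4 in NE/Ovx against Sham they ran from -0.469 to 0.0776, with 0.00871 by limma at a pseudocount of 0.1. Between RE/Ovx and NE/Ovx they ran from -0.081 to 0.0918 (0.0829 lacking NE/Ovx rat 9), with 0.00637 by library totals and 0.00341, 0.00333 and 0.00341 by the limma settings. In RE/Ovx against Sham they ran from -0.474 to 0.0729, with 0.00202, 0.012 and 0.00202 by limma. For Insr in that comparison they ran from -0.0601 to 0.047 (0.000404 lacking RE/Ovx rat 3), with 0.0454 by library totals and 0.045, 0.0476 and 0.045 by limma. None of these values passed the threshold. Of 590 values of genes of the lists, 480 were kept, 98 no longer passed, 11 newly passed and 1 changed sign, that of Lipc between RE/Ovx and NE/Ovx, which ran from -0.832 to 0.208 when a rat was left out.

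No paired analysis was possible because the groups compared share only 1 rat number, and a number names a rat of 1 group.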
